A study of Mus musculus with 23 samples.

Results

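Oligodendrocyte precursors were described in mouse brain after an intravenous dose of an antibody that crosses brain capillaries. A cell was a member when at least 3 of Pdgfra, Cspg4, C1ql1, Neu4, Sox10, Olig1, Bmp4 and Gpr17 had a UMI (a counted RNA molecule) and these 8 genes together had more UMIs than 11 genes of other cell types (Mog, Mag, Opalin, Aqp4, Gja1, Cldn5, Flt1, Cx3cr1, P2ry12, Dcn, Col1a1). The rule found 205 members among 249715 barcodes that passed the quality filter, of 265025 in all. It was set with these measurements in view, so these 19 genes are given only as descriptions.

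An antibody transport vehicle (ATV) binds a receptor on capillary endothelium. ATV-TfR, which binds the transferrin receptor (gene Tfrc), was given to mice with a TfR mu/hu knock-in, ATV-CD98hc, which binds CD98hc (gene Slc3a2), to mice with a CD98hc mu/hu knock-in, and a control IgG to C57BL/6 mice, each at 45 mg/kg coupled to the dye AF647. Treatment and genotype therefore cannot be told apart, and counts of a knocked-in gene cannot be compared like for like between genotypes. Brain tissue, from which the cerebellum, olfactory bulb, medulla and pons had been cut away, was taken at 24 hours from mice aged 3.3 months. It was dissociated with actinomycin D and anisomycin, cleared of myelin on sucrose and sorted alive into negative, low, medium and high AF647 bins. The gates were tertiles of the ATV-TfR positive cells and were used for every treatment. About 30% of cells were positive with ATV-TfR, 20% with ATV-CD98hc and 1% with control IgG, per the labels. Every treatment had 2 pools, each of 1 female with 1 male, and a library was 1 bin of 1 pool. The control IgG negative bin had only pool 2, which gave 23 libraries with 1861238 to 90307818 UMIs and 526 to 20570 kept barcodes. The bins of a pool came from the same animals.

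Oligodendrocyte precursors are the dividing, Pdgfra-bearing glia of the adult brain that renew oligodendrocytes. They carry receptors for glutamate and GABA and receive synapses from neurons. On the way to myelination they lose Pdgfra and Cspg4, pass through a brief committed stage marked by Gpr17, Bmp4, Bcas1 and Enpp6, and then switch on myelin genes. Transferrin and iron are known to favour their maturation.

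Members were rare in every bin, at 0.0922% of kept barcodes over all negative libraries, 0.151% over the low, 0.0687% over the medium and 0.00482% over the high libraries. With ATV-TfR the 2 pools held 13 and 7 members in the negative bin, 43 and 15 in the low bin, 20 and 2 in the medium bin, and 0 and 0 in the high bin. With ATV-CD98hc they held 5 and 2 in the negative bin, 16 and 38 in the low bin, 15 and 11 in the medium bin, and 2 and 1 in the high bin. With control IgG the negative library held 8 members, the low libraries 3 and 3, the medium libraries 0 and 1, and the high libraries 0 and 0. Only 3 libraries reached 20 members. As a share of kept barcodes the libraries ran from 0% to 0.266%, and this highest share, in the ATV-TfR low bin of pool 1, had a 95% exact binomial interval of 0.193% to 0.358%. The 0 members in the ATV-TfR high bins allowed shares of up to 0.0189% and 0.0209% by the same interval, which covers counting error only, as all intervals here do.

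The label held for most members and failed for a distinct minority. Of 10 precursor genes outside the rule (Olig2, Sox6, Ptprz1, Lhfpl3, Vcan, Tnr, Matn4, Cacng4, Pcdh15, Megf11), 174 members had UMIs of 3 or more, and 156 of these had 8 or more. These are called identity-supported below, a line drawn after the values were seen, and only 18 members lay between 3 and 7 genes. The other 31 members had 0, 1 or 2 of the 10. Of these, 23 had UMIs of 3 or more of 8 mural genes (Vtn, Rgs5, Acta2, Kcnj8, Higd1b, Myl9, Tagln, Abcc9), which mark pericytes and smooth muscle. Of the 31, 27 had UMIs of both Cspg4 and Bmp4, 6 had Pdgfra, and 30 had exactly 3 rule genes. Cspg4 is also known from pericytes. Another 5 had fewer than 3 mural markers and 50 or more UMIs of choroid plexus and ependymal genes, led by Ttr. No name is given to the 31. At the edge of the rule, 61 members had exactly 3 rule genes and 7 exceeded the other genes by 1 UMI. Just outside it lay 1049 barcodes with 2 rule genes that outnumbered the other genes in UMIs, 129 of them with Pdgfra. Another 531 had 3 or more rule genes that did not outnumber the other genes, 113 of them with Pdgfra. Scrublet, a doublet caller, marked 8 members. Of 241978 barcode sequences 7598 occurred in more than 1 library, and 7 members had such a sequence, none shared between members.

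**Figure D1:**
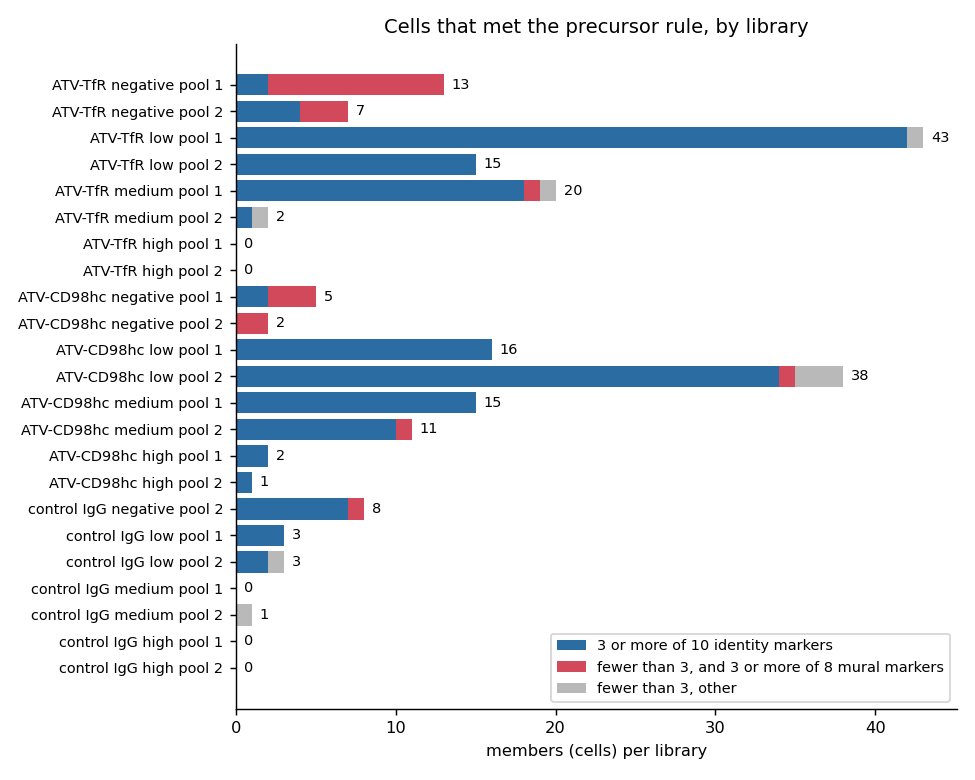
Members per library (cells, horizontal axis), with the total printed at each bar. Blue, members with 3 or more of 10 identity markers; red, members with fewer and with 3 or more of 8 mural markers; grey, the rest. Red makes up 11 of 13 and 3 of 7 members in the ATV-TfR negative libraries and 3 of 5 and 2 of 2 in the ATV-CD98hc ones.

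Of the 31 unsupported members, 20 were in negative bins, 6 in low and 5 in medium bins. With ATV-TfR, 6 of 20 members of the negative bin were identity-supported, against 57 of 58 in the low bin and 19 of 22 in the medium bin. With ATV-CD98hc the counts were 2 of 7 negative, 50 of 54 low, 25 of 26 medium and 3 of 3 high. With control IgG they were 7 of 8 negative, 5 of 6 low and 0 of 1 medium. All 20 unsupported members of negative bins were mural-marked. One ATV-CD98hc high member counted as supported had 27770 UMIs, only 3 identity genes, no Pdgfra UMI and 3193 UMIs of Ttr. Among 3 supported members with 50 or more choroid plexus and ependymal UMIs, the others were 1 in ATV-CD98hc low of pool 1 (925 Ttr UMIs) and 1 in ATV-TfR low of pool 2 (1130 Ttr UMIs). Those 2 libraries stood apart in the summed choroid plexus and ependymal genes, at 13400 and 12900 counts per 1000000 UMIs of supported members, against 122 to 375 in the other 5 libraries with 10 or more of them.

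**Figure D2:**
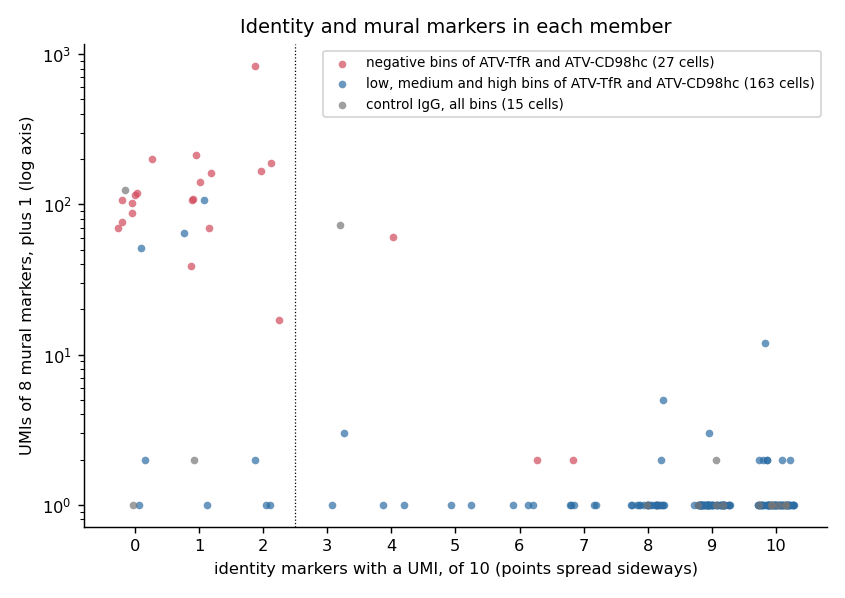
Each point is a member: identity markers with a UMI (of 10, horizontal axis) against UMIs of 8 mural markers plus 1 (vertical, log axis), coloured by bin and treatment. The dotted line separates identity-supported members, at 3 or more, from the rest, where most points are red and high in mural UMIs.

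Several of the genes that chose the supported members are described first, and their levels there follow from that choice. Pdgfra, the receptor for platelet-derived growth factor and a rule gene, had a UMI in 83.9% of them (803 CPM, counts scaled to 1000000 UMIs), against 0.342% of astrocyte-marked, 0.409% of oligodendrocyte-marked, 0.586% of endothelial-marked and 0.689% of microglia-marked cells. Those classes had UMIs of 3 or more of 8 marker genes each, and the median depths were 4909 UMIs in the supported members and 4138, 5841, 3483 and 3050 UMIs in the classes. Lhfpl3 was at 4170 CPM in supported members and at most 37.5 CPM in the 4 classes. Megf11 was at 539 CPM against at most 4.56 CPM. Ptprz1, a receptor-type phosphatase, was shared with astrocytes, at 2810 CPM in supported members and 2000 CPM in astrocyte-marked cells. All 3 are among the 10 identity genes.

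The gene that stood out most, over all bins, was Nxph1, a secreted ligand of neurexins. It was at 1860 CPM with a UMI in 93.1% of supported members, 1400 times its highest level in the other classes (1.33 CPM, astrocyte-marked). Lrrtm4, a synaptic adhesion protein, was at 1900 CPM, a ratio of 305. Tnr, the matrix glycoprotein tenascin-R and one of the 10 identity genes, was at 3020 CPM, a ratio of 238. Further genes among the 20 with the largest ratios were Prkg2, a cGMP-dependent kinase (ratio 502), the zinc finger factor Myt1 (448), Plppr1 (440), Neto1, an auxiliary subunit of kainate receptors (328), the contactin Cntn6 (234), the teneurin Tenm1 (226) and the potassium channel Kcnh8 (156). The same ranking over the 35 members of the negative bins also began with Nxph1 (872 CPM, ratio 752, 28.6% of members) and held Myt1, Lrrtm4, Cntn6, Plppr1, Neto1 and Tnr. Of those 35 members, 15 were supported. The classes are defined by genes of the same cells, so these ratios have no test.

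Genes of glutamate and GABA receptors were read beside markers of astrocytes and neurons in the same cells. Supported members had 4640 CPM over 12 astrocyte genes (2590 to 7390 CPM in the 7 libraries with at least 10 of them), against 25800 CPM in astrocyte-marked, 1070 CPM in endothelial-marked and 1400 CPM in oligodendrocyte-marked cells. They had 325 CPM over 9 neuron genes, against 33.0 to 101 CPM in the 4 classes, and 17 of the 174 had UMIs of 3 or more neuron genes. The part of RNA from other cells in the receptor levels was not tested. Summed over 29 glutamate and GABA receptor genes, supported members had 6470 CPM, astrocyte-marked cells 6440 CPM, oligodendrocyte-marked cells 2050 CPM and endothelial-marked cells 329 CPM. Levels were not compared in this way over all genes, so the following counts are not read as particular to the list. Gene by gene, 18 of the 29 were at a higher level in supported members than in astrocyte-marked cells and 11 at a lower one. Poisson intervals were apart for 17 and 10. For example, the AMPA receptor subunit Gria3 was at 382 CPM in supported members and 5.97 CPM in astrocyte-marked cells, and Grm5 was at 525 CPM against 66.6 CPM. Grin3a, an NMDA receptor subunit, was at 429 CPM against 90.5 CPM. The reverse held for Gabrb1, a GABA-A subunit, at 462 CPM against 1760 CPM. Over the 7 libraries with 10 or more supported members, Gria3 ran from 243 to 491 CPM and Grm5 from 254 to 802 CPM, both lowest in the ATV-TfR low bin of pool 2. Summed over 21 ion channel genes, supported members had 4910 CPM, above the 2470 CPM of astrocyte-marked cells, and Kcnd2, a potassium channel, made up 2490 CPM of it.

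The 2 targets of the antibodies were lower in supported precursors than in endothelial-marked cells within each genotype. Tfrc, which imports transferrin-bound iron, was at 30.5 CPM in supported members (30 UMIs, 95% Poisson interval 20.6 to 43.6). Oligodendrocyte-marked cells had 30.9 CPM, which lies within that interval, astrocyte-marked cells 43.6 CPM and endothelial-marked cells 391 CPM, all pooled over genotypes. With ATV-CD98hc, where Tfrc is not the knocked-in gene, supported precursors had 41.5 CPM (interval 24.6 to 65.5), oligodendrocyte-marked cells 42.0 CPM and endothelial-marked cells 498 CPM. With ATV-TfR the 3 values were 16.8, 21.1 and 212 CPM, and with control IgG 56.2 (4 UMIs), 40.3 and 503 CPM. In the 7 libraries with 10 or more supported members Tfrc was at 24.7 and 0 CPM in the ATV-TfR low bins, 18.2 CPM in ATV-TfR medium, 55.7 and 47.4 CPM in ATV-CD98hc low, and 9.62 and 33.2 CPM in ATV-CD98hc medium. These ranges overlap, and every value rests on few UMIs.

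Slc3a2, the heavy chain of several amino acid transporters, was at 58.0 CPM in supported members (57 UMIs, interval 43.9 to 75.1), against 66.1 CPM in oligodendrocyte-marked, 249 CPM in astrocyte-marked and 400 CPM in endothelial-marked cells, again pooled over genotypes. With ATV-TfR, where Slc3a2 is not the knocked-in gene, supported precursors had 83.8 CPM (interval 59.9 to 114), oligodendrocyte-marked cells 81.7 CPM and endothelial-marked cells 598 CPM. With ATV-CD98hc the 3 values were 25.3, 29.1 and 257 CPM, and with control IgG 84.2 (6 UMIs), 77.0 and 481 CPM. By library it was at 74.1 and 77.4 CPM in the ATV-TfR low bins and 137 CPM in ATV-TfR medium of pool 1. It was at 13.9 and 27.1 CPM in the ATV-CD98hc low bins and 9.62 and 0 CPM in the ATV-CD98hc medium bins. The values of the 2 genotypes do not overlap, but the gene itself is altered in the CD98hc mu/hu knock-in. With all members of a pool summed, Slc3a2 was at 91.9 and 80.1 CPM with ATV-TfR and 9.54 and 41.7 CPM with ATV-CD98hc, a log2 difference of 1.68 (SE 0.59) that did not pass adjustment over all genes (adjusted p = 1.00, edgeR's quasi-likelihood test). Slc7a5, a light chain that pairs with CD98hc, was at 41.7 CPM in supported members and 949 CPM in endothelial-marked cells. Over all members it was at 194 CPM in ATV-CD98hc medium of pool 2, where supported members had 4120 CPM of endothelial genes. In the other libraries with 10 or more members it was at 0 to 53.8 CPM.

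**Figure D3:**
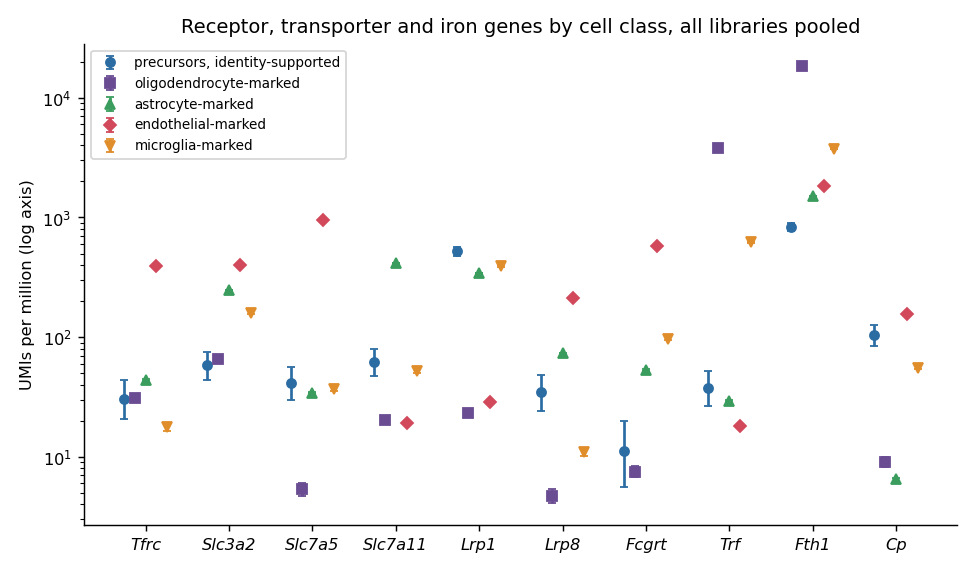
CPM (log axis) of receptor, transporter and iron genes in identity-supported precursors and 4 other cell classes, all libraries pooled, with 95% Poisson intervals that cover counting error only. Precursors lie below endothelial-marked cells for Tfrc, Slc3a2, Slc7a5 and Fcgrt and above all 4 classes for Lrp1.

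Of 20 antibody receptor and partner genes, 12 were at a higher level in supported members than in oligodendrocyte-marked cells and 8 at a lower one. Poisson intervals were apart for 11 and 0. Against astrocyte-marked cells 8 were higher and 12 lower, against endothelial-marked 5 and 15, and against microglia-marked 11 and 9. Intervals were apart for 4 and 6, 5 and 9, and 6 and 8. The list summed to 5620 CPM in ATV-CD98hc medium of pool 2, where endothelial genes summed to 4120 CPM. In the other libraries with 10 or more supported members it summed to 1120 to 2260 CPM. The part of endothelial RNA was not tested. Of 22 iron handling genes, 13 were higher and 8 lower than in oligodendrocyte-marked cells, with intervals apart for 6 and 5. The counts were 10 and 12 against astrocyte-marked, 9 and 13 against endothelial-marked and 6 and 15 against microglia-marked cells. Intervals were apart for 5 and 3, 5 and 10, and 4 and 8. Levels were not compared in this way over all genes, so no count is read as particular to either list. Lrp1, a large endocytic receptor, was at 525 CPM in supported members and had a UMI in 85.1% of them, against 23.2 CPM in oligodendrocyte-marked, 345 CPM in astrocyte-marked and 394 CPM in microglia-marked cells. Over the 7 libraries it ran from 243 to 684 CPM. The neonatal Fc receptor gene Fcgrt, which recycles IgG, was at 11.2 CPM (11 UMIs) in supported members, 7.52 CPM in oligodendrocyte-marked cells and 580 CPM in endothelial-marked cells. Its 94.3 CPM over the 35 members of the negative bins lay beside 110 CPM in the unsupported members. Trf, transferrin itself, was at 37.6 CPM in supported members and 3810 CPM in oligodendrocyte-marked cells, and the ferritin gene Fth1 was at 832 CPM against 18400 CPM. Ceruloplasmin (Cp), a ferroxidase, was at 104 CPM in supported members and 9.04 CPM in oligodendrocyte-marked cells.

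With ATV-CD98hc the share of precursors in their own lineage had a positive slope over the bins. The positive bins lay above the negative one, but in pool 2 the share did not rise past the low bin. Of precursors plus oligodendrocyte-marked cells, members made up 0.404% and 0.340% in the 2 negative libraries, 7.21% and 19.6% in the low, 21.4% and 18% in the medium, and 66.7% and 16.7% in the high libraries. The high values rest on 2 of 3 and 1 of 6 cells, and the 1 is the cell with 27770 UMIs and 3 identity genes. All 6 positive libraries lay above both negative ones. The slope of the log odds was 1.57 per bin (SE 0.33; exact permutation p = 0.0032, two-sided, adjusted p = 0.029 over 12 trends, 8 libraries). The call was lost when labels were permuted only within pools, whose bins share animals (exact permutation, adjusted p = 0.062) and with at least 4 rule genes or with cells thinned to 2000 UMIs (adjusted p = 0.081 in each). The pools alone had slopes of 1.24 and 1.90, where no p below 0.083 is possible. For the supported members the slope was 1.93, given without a test since they were chosen after seeing values.

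With ATV-TfR the corresponding shares were 0.707% and 0.553% negative, 10.4% and 5.26% low, 18.5% and 2.63% medium, and 0% and 0% high, where only 13 and 3 oligodendrocyte-marked cells were found. For the slope 0.5 cells were added to each side, so these 2 high libraries entered above 0%. The fewer oligodendrocyte-marked cells such a library held, the higher it entered. The slope was 0.73 per bin (SE 0.35) and did not pass (exact permutation p = 0.087, adjusted p = 0.15). The low and medium libraries all lay above the negative ones. Whether the 2 treatments differ in this slope was not tested. With control IgG the negative library had 0.585% and the low libraries 42.9% and 18.8%, which rest on 3 of 7 and 3 of 16 cells. The medium and high libraries held at most 2 cells of the lineage each. The high library of pool 2 had no cell of the lineage and entered the slope only through the 0.5 cells added to each side. The slope rests in part on these added cells and is not read as a trend. The slope was 1.12 per bin (SE 0.60) and did not pass (exact permutation p = 0.11, adjusted p = 0.15). It was -0.42 without pool 2, which holds the only control IgG negative library. The low libraries of control IgG too lay above its negative one.

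**Figure D4:**
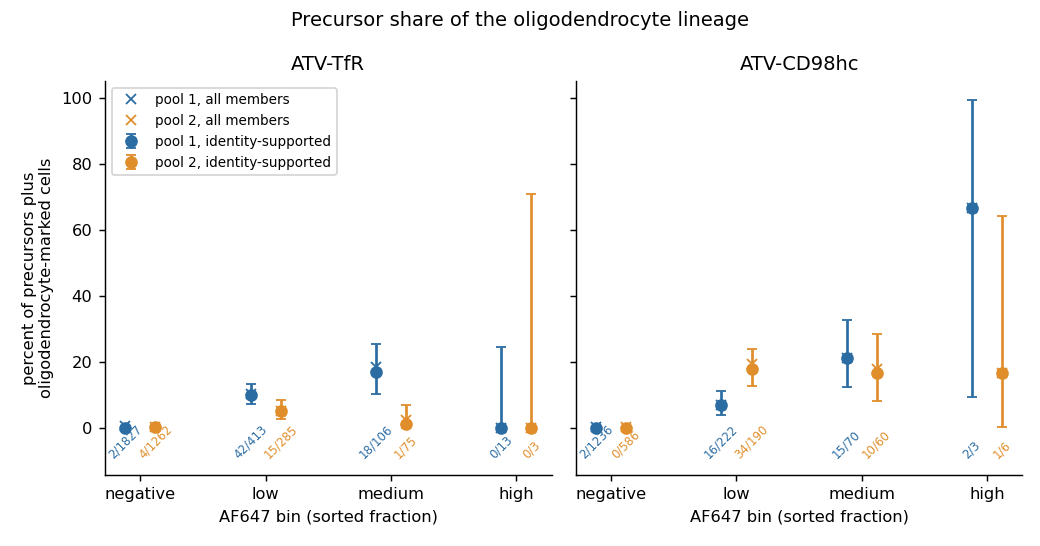
Precursors as a percent of precursors plus oligodendrocyte-marked cells, by AF647 bin, for ATV-TfR (left) and ATV-CD98hc (right). Circles, identity-supported members with 95% exact binomial intervals (counting error only), with their counts below; crosses, all members. The negative libraries are near 0% and the low and medium libraries higher, while the high libraries hold very few cells of the lineage.

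Against astrocytes the slope of the share was positive and passed the main test with ATV-CD98hc, and it passed in neither other treatment. In both ATV-CD98hc pools this share was highest in the medium bin. Members as a share of precursors plus astrocyte-marked cells were 0.137% and 0.103% in ATV-CD98hc negative, 0.131% and 0.269% in low, 1.07% and 0.587% in medium and 0.939% and 0.459% in high libraries. That slope was 0.71 per bin (SE 0.14; exact permutation p = 0.0048, adjusted p = 0.029), and the call was lost under the same 3 settings (adjusted p = 0.062, 0.081 and 0.081). The pools alone had slopes of 0.83 and 0.59. With ATV-TfR the shares were 0.725% and 0.335% negative, 0.309% and 0.0920% low, 0.165% and 0.0167% medium and 0% and 0% high, a slope of -0.63 (exact permutation p = 0.061, adjusted p = 0.12). With control IgG they were 0.146% negative, 12.0% and 5.66% low, 0% and 5.88% medium and 0% and 0% high, a slope of 0.89 (exact permutation p = 0.10, adjusted p = 0.15). That slope was -0.27 without pool 2. Libraries with 0 members entered the slopes above 0% through the 0.5 cells added to each side. Those of control IgG held only 5 to 9 astrocyte-marked cells. Of the negative ATV-TfR members 11 of 13 in pool 1 and 3 of 7 in pool 2 were unsupported, and with supported members only the slope was -0.33. Of all kept barcodes, the slope of members was -1.28 in log odds per bin with ATV-TfR and -0.53 with ATV-CD98hc. Neither passed (adjusted p = 0.054 and 0.11, exact permutation). From negative to low this share rose in pool 1 of ATV-TfR (0.145% to 0.266%) and in both ATV-CD98hc pools. It fell in pool 2 of ATV-TfR (0.105% to 0.0831%). The supported share over both pools was 0.0384% negative, 0.167% low, 0.0604% medium and 0% high with ATV-TfR. With ATV-CD98hc it was 0.0197%, 0.132%, 0.0652% and 0.0126%. In the high libraries most barcodes were endothelial-marked, 18533 of 19551 and 16915 of 17611 with ATV-TfR and 9764 of 10431 and 12752 of 13372 with ATV-CD98hc. Without endothelial-marked barcodes the slope was -0.34 with ATV-TfR and 0.53 with ATV-CD98hc (adjusted p = 0.24 and 0.095, exact permutation). The change from the slopes over all kept barcodes was not tested.

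The labels' share of positive cells allows a rough estimate of how many precursors were AF647-positive with ATV-TfR. No background was taken off. Control IgG also gave about 1% positive cells, and its low and medium bins held 6 members and 1 member. Weighting the bins by 30% positive cells in equal tertiles, 27.9% and 11.5% of members of the 2 pools were AF647-positive, and 70.5% and 17.6% of the supported ones, a subset chosen after values were seen. The estimate was 2.01% and 1.48% of oligodendrocyte-marked, 54.3% and 43.7% of astrocyte-marked, 2.07% and 2.10% of microglia-marked and 90.9% and 91.5% of endothelial-marked cells. By either count precursors lay above oligodendrocyte-marked cells in both pools. The supported values rest on 2 and 4 cells in the negative bins, and the 30% is a single approximate value for the treatment. In both pools the positive precursors were mostly in the low bin (49.2% and 16.3% of all supported precursors), while most endothelial-marked cells were in the high bin (74.1% and 76.0%).

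Cells with the full committed profile were few, and most members with Bmp4 or Gpr17 UMIs did not have it. By 2 or more UMIs of Bmp4 and Gpr17 together, 66 of 205 members (32.2%) and 58 of 174 supported members (33.3%) were committed, and 8 of the unsupported ones were, all through Bmp4 alone. In supported members the count was 3 of 6 in ATV-TfR negative, 22 of 57 in low and 7 of 19 in medium. It was 2 of 2, 12 of 50, 8 of 25 and 1 of 3 over the ATV-CD98hc bins, and 3 of 7 and 0 of 5 in control IgG negative and low. Thinned to 2000 UMIs per cell, 19 of 157 supported members (12.1%) remained above the count. These shares were not tested, since most bins held few supported members.

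A UMI of Enpp6, a choline phosphodiesterase of newly forming oligodendrocytes, was found in 9 supported members, and their committed-stage levels did not overlap those of the rest. Over 15 committed-stage genes, Enpp6 included, they had 228 to 421 UMIs per 10000 (median 269). The 50 supported members with 2 or more UMIs of Bmp4 and Gpr17 but no Enpp6 had 5.47 to 91.1 (median 23.2), and the other 115 had 4.68 to 73.8 (median 24.9). All 9 had Bmp4 UMIs and none had a Pdgfra UMI, whereas 47 of the 50 had Pdgfra. Bmp4, Gpr17 and Pdgfra are rule genes, and the 50 cells were picked by their Bmp4 and Gpr17 UMIs. The Bmp4 and Pdgfra counts are therefore not independent of how the cells were chosen, and are given only as descriptions. In the 9 cells Bcas1 was at 5080 CPM, the kinase Fyn at 4640 CPM, the deacetylase Sirt2 at 4900 CPM and Mbp, a myelin protein gene, at 3380 CPM. In the 50 cells the same genes were at 423, 334, 299 and 60.4 CPM. Ptprz1 and Lhfpl3 were lower in the 9 cells (552 and 648 CPM) than in the 50 (3650 and 3240 CPM), and Tnr was higher (6560 against 2290 CPM). The 9 cells were set apart after their values were seen, so no test is given. Of oligodendrocyte-marked cells 20.9% had an Enpp6 UMI, at 88.0 CPM.

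**Figure D5:**
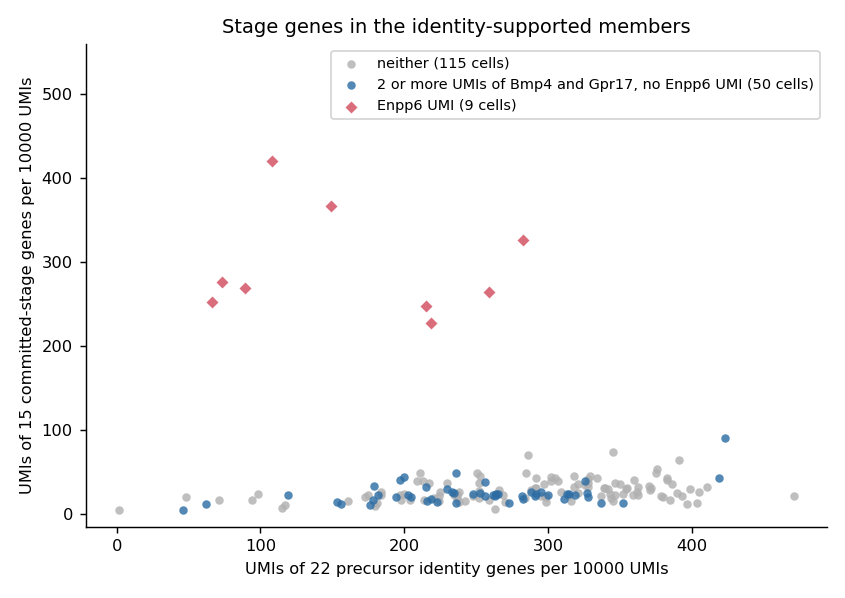
Each point is an identity-supported member: UMIs of 22 precursor identity genes (horizontal) against UMIs of 15 committed-stage genes (vertical), both per 10000 UMIs of the cell. The 9 cells with an Enpp6 UMI (red diamonds) have 228 to 421 committed-stage UMIs, and all others have at most 91.1.

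These 9 cells were spread over the negative and low bins. They were 2 of 6 supported members in ATV-TfR negative, 4 of 57 in ATV-TfR low, 1 of 2 in ATV-CD98hc negative and 2 of 50 in ATV-CD98hc low. All 4 of the ATV-TfR low bin came from pool 2, which held 15 supported members there. None was among the 19 and 25 supported members of the medium bins, the 3 of the ATV-CD98hc high bin or the 12 of control IgG.

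Dividing members, with UMIs of 3 or more of 24 cell division genes, numbered 14, of which 12 were supported. They were 4 in ATV-TfR low of pool 1, 2 and 1 in the ATV-CD98hc medium pools, 1 each in ATV-CD98hc low and high of pool 2 (the high one is the cell with 27770 UMIs and 3 identity genes), and 2 and 1 in the control IgG low pools, where they were 3 of 5 supported members. In these 12 cells together, the UMIs of that cell included, the division genes summed to 4380 CPM and Pdgfra, with a UMI in 10 of the 12, was at 915 CPM, with Top2a, a mitotic topoisomerase, at 507 CPM and Bcas1 at 74.8 CPM. None had an Enpp6 UMI. Their median depth was 8702 UMIs, and after thinning to 2000 UMIs 5 of 157 supported members counted as dividing.

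Tests across genes were limited by member numbers. No planned comparison of bins had enough libraries with 20 members. With the members of all bins of a pool summed, ATV-TfR minus ATV-CD98hc (2 pools each) gave 0 of 5706 genes past an adjusted p of 0.05 (edgeR's quasi-likelihood test, 0% called), with 161 genes at an unadjusted p under 0.05 (2.82%), and DESeq2 also gave 0. Leaving out any 1 ATV pool gave called genes, but left 1 treatment with a single pool. The same held with committed members left out, where only 3 pools reached 20 members. None of the 22 tested identity genes, 12 committed-stage genes or 9 iron genes passed, and their median log2 differences were -0.34, 0.86 and 0.13, beside 0.00 over all genes. None of the 10 tested cholesterol synthesis genes and none of the 22 endosome and lysosome genes passed either (medians 0.70 and 0.21).

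With 10 members per library, a minimum chosen after the numbers were seen, 8 libraries entered 1 fit of 4259 genes outside the rule. Neither ATV-TfR low minus ATV-CD98hc low nor ATV-CD98hc medium minus low had a gene past the threshold (0% called in both by edgeR and 0 genes by DESeq2), with 175 and 124 genes at an unadjusted p under 0.05 (4.11% and 2.91%). With committed members left out, only 5 libraries in 4 groups held 10 members, and ATV-TfR low and ATV-CD98hc medium kept 1 library each. Both comparisons then had called genes, but each had an arm of 1 library. With the pool as a block the second had 68 called genes. Without pool 1 of ATV-TfR the first had 120. The smallest p in the first was that of Cnp, a myelin enzyme, at 122 and 2600 CPM in ATV-TfR low and 13.9 and 23.9 CPM in ATV-CD98hc low (log2 difference 6.06, SE 1.16, adjusted p = 0.19). The high value is that of pool 2, the library with 4 Enpp6 cells.

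In the ATV-CD98hc medium bins endothelial genes lay beside the precursor genes. Over 12 endothelial genes, supported members had 365 and 4120 CPM in the 2 medium libraries and 55.7 and 427 CPM in the low ones, against 27.3 to 77.4 CPM in the 3 ATV-TfR libraries. Endothelial-marked cells had 23300 CPM. Of the 25 supported members of the medium bin, 8 had 3 or more endothelial markers, and 12 of all 174 did. Ly6a, an endothelial surface gene, was at 67.3 and 373 CPM in all members of the medium libraries and at 0 and 0 CPM in the low ones (adjusted p = 0.75, edgeR). The part of endothelial RNA in the medium bin's values was not tested.

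ATV-TfR low minus negative had 2 low libraries and 1 negative library, whose 13 members were mostly mural-marked. The spread of the negative arm was not measured, since a lone library is assumed to vary like the other groups. It called 203 of 4259 genes (4.77%), 54 higher (1.27%) and 149 lower (3.5%), with 772 at an unadjusted p under 0.05 (18.1%). The balance turned with the setting: DESeq2 called 52 higher and 26 lower of the 1118 genes to which it gave an adjusted p, and a minimum count of 30 gave 60 higher and 53 lower. The 8 mural genes that had marked 11 of the 13 members were all lower. They are not independent of that marking, and nothing is read from it. Acta2, smooth muscle actin, was at 0 and 0 CPM in the low libraries and 6520 CPM in the negative one. Myh11, smooth muscle myosin, was at 0 and 0 CPM against 2160 CPM, and Vtn, made by pericytes, at 4.05 and 0 CPM against 11900 CPM. Of 20 tested glutamate and GABA receptor genes 4 were higher and 1, Grm3, was lower (203 and 66.3 against 663 CPM). The higher ones included Grin3a (426 and 321 against 0 CPM) and Gria3 (381 and 243 against 0 CPM). Also higher were Dpp10, a subunit of potassium channels (580 and 332 against 0 CPM), and the calcium-binding S100b (166 and 1110 against 0 CPM). Also lower were the transcriptional regulators Id3 (40.5 and 22.1 against 332 CPM) and Hes1 (64.8 and 55.3 against 332 CPM), Btg2 (12.2 and 22.1 against 398 CPM) and the interferon-induced Ifitm3 (0 and 22.1 against 348 CPM). The 22 identity genes had a list median of 2.21 in log2, beside 0.01 over all genes. Gpr37l1 was at 766 and 542 against 33.2 CPM, and Cacng4 at 794 and 354 against 33.2 CPM. Cacng4 is among the genes whose lack set 11 of the 13 negative members apart as unsupported. The list is not independent of that choice, and nothing is read from it. Only 2 members of the negative library were identity-supported, and the part of this makeup in the called genes was not tested. Without pool 2 of ATV-CD98hc, which enters the shared estimate of spread, 0 genes passed, with the pool as a block 851 did.

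ATV-TfR medium (1 library) differed from ATV-TfR low and from ATV-CD98hc medium in 2 genes each (0.047% called), with 138 (3.24%) and 109 (2.56%) genes at an unadjusted p under 0.05. The called genes were Htr2c and Prlr in both comparisons, and both genes are known from choroid plexus epithelium. In ATV-TfR medium of pool 1 they were at 796 and 437 CPM, and in the 4 libraries compared with it at 0 to 22.1 CPM. All 102 Htr2c UMIs and all 56 Prlr UMIs of that library lay in 1 member each, and both genes were at 0 CPM in its supported members. With supported members neither comparison had a called gene.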

How the data were processed

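Droplet single-cell RNA-seq was made from 23 sorted libraries. The deposited matrix holds raw UMI counts of 32285 genes, made with Cell Ranger 7.1.0 per the file headers; mm10/GRCm38 and Seurat 4 and 5 are named in the submitters' processing notes, with no role stated. A deposited index ties each barcode to its library. Kept barcodes had at least 500 genes, 800 UMIs and at most 10% mitochondrial UMIs. Members and lists were chosen with earlier results of these data known. Shares were tested as the slope of the logit (0.5 cells added) over the 4 bins, by exact two-sided permutation of bin labels, with Benjamini-Hochberg adjustment over 12 trends. Member counts were summed per library or pool and tested with edgeR 4.0.16 (quasi-likelihood, TMM, adjusted p below 0.05 over all genes tested; R 4.3.3), with DESeq2 1.42.0 as an alternative, and the code was tested on simulated data. The planned minimum of 20 members per library allowed no bin comparison, so 10 was used, after the numbers were seen. Same-numbered libraries of a treatment come from the same mice, so the pool is a true block within a treatment. Named genes were the 10 largest folds per direction among called, non-overlapping genes with at least 20 CPM, called list genes, Tfrc, Slc3a2, Slc7a5 and the smallest p-values. Other named genes, and those in supported members, were chosen after their values were seen. One gene that the rule names is not reported here. Doublets were marked with Scrublet (scanpy 1.11.5) and kept. Groups of libraries had 1 or 2 pools of 2 mice. Gene tests use a spread pooled over the groups, also for groups of 1 library, and share tests permute bin labels over 7 or 8 libraries.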

Additional observations from a re-analysis of the deposited data

Results flagged for a closer look

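For 2 denominators the slopes of the precursor share over the bins had opposite signs in the 2 ATV treatments, in every pool. Among kept barcodes that were not endothelial-marked, the slopes were -0.397 and -0.289 per bin in the ATV-TfR pools and 0.638 and 0.426 in the ATV-CD98hc pools, a difference of 0.875. Neither treatment's slope passed its own test (ATV-TfR -0.34, SE 0.24, adjusted p = 0.24; ATV-CD98hc 0.53, SE 0.18, adjusted p = 0.095, exact permutation). Among precursors plus astrocyte-marked cells they were -0.762 and -0.499 against 0.829 and 0.586, a difference of 1.338. Neither difference was tested. With identity-supported members only, the slopes for the first were 0.101 and -0.186 against 0.875 and 0.911, so the opposite directions no longer held in every pool. For the second they were -0.264 and -0.397 against 1.066 and 1.07.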

How the results depend on the processing

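Of 184 alternative values of the main results, 110 kept direction and call, 53 moved, 10 lost and 2 gained a call, and 9 turned. Some of the 110 could not change. No control IgG library entered a gene fit, so leaving out its pools repeated the main counts. Permuting labels within pools leaves each slope as it was, and a trend in a single pool cannot gain a call. Slopes with identity-supported members only were -0.043 (ATV-TfR, barcodes without endothelial-marked cells), -0.33 (ATV-TfR, with astrocytes), -0.168, 0.893, 1.932 and 1.068 (ATV-CD98hc, of all barcodes, without endothelial-marked cells, with oligodendrocytes and with astrocytes) and 0.007 (control IgG, of all barcodes). With none of the 11 other genes, ATV-TfR of all barcodes (-1.099) and ATV-CD98hc without endothelial-marked cells (0.555) passed. With at least 4 rule genes the ATV-TfR slope without endothelial-marked cells turned to 0.011. The called ATV-CD98hc slopes with oligodendrocytes and astrocytes lost their calls with at least 4 genes (1.788 and 0.924), thinning (1.184 and 0.465), and the replicate block (1.571 and 0.707). Single pools (1.24 to 1.902 and 0.586 to 0.829) cannot give a p below 0.083, so no call was possible there. The control IgG slope of all barcodes, -0.012, was 0.072 with at least 4 genes, 0.088 with none of the 11, 0.028 without Scrublet marks, 0.174 thinned and, leaving out a pool, -0.248 to 0.068. Leaving out a pool, the control IgG slopes with oligodendrocytes and astrocytes ran from -0.424 to 1.767 and from -0.269 to 1.248.

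Called genes moved as follows. Without committed members only 5 libraries and 3 pools kept enough members. Each count in that setting rests on an arm of 1 library or 1 pool. ATV-CD98hc medium minus low, 0, gave 75 without committed members, 17 unfiltered, 68 with the replicate block and 0 to 27 leaving out a pool. ATV-TfR low minus ATV-CD98hc low, 0, gave 21, 19 unfiltered and 0 to 120. ATV-TfR low minus negative, 203, gave 78 by DESeq2, 113 at a minimum count of 30, 389 unfiltered, 851 with the replicate block and 0 without ATV-CD98hc pool 2. ATV-TfR medium minus ATV-CD98hc medium, 2, gave 1 by DESeq2, 7 with RLE factors, 5 without Scrublet marks, 0 with supported members, 0 at a minimum of 30, 15 unfiltered and 20 without ATV-TfR pool 2. ATV-TfR medium minus low, 2, gave 0 by DESeq2, 0 with supported members, 0 at 30, 26 unfiltered, 15 with the replicate block and 0 to 9 leaving out a pool. The pool sums, 0, gave 14 without committed members, 31 unfiltered and 4 to 40 leaving out a pool. Log2 differences that turned were Slc7a5 (0.25 without Scrublet marks) in ATV-TfR low minus ATV-CD98hc low and, with supported members, Ttr (-0.76) and Ecrg4 (-2.7) in ATV-TfR medium minus ATV-CD98hc medium and Ecrg4 (-5.32) in ATV-TfR medium minus low. The cause was not tested.

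The committed share was 64.4% at 1 UMI, 17.1% at 3 and 12.4% thinned (supported 58.6%, 20.1% and 12.1%), and the dividing share thinned was 2.69% (3.18%). From the negative bins to all members and supported members Lrp8 went from 5.89 to 33.2 and 34.6 CPM and Fcgrt from 94.3 to 25.3 and 11.2 CPM. Member number limits every value: 3 libraries reached 20 members.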
